A study of Mus musculus with 12 samples.

Results

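Macrophages from mice labelled Fes-/-, in which the gene of the tyrosine kinase FES is disrupted, were compared with wild-type (Fes+/+) macrophages in the resting state. Of 12 libraries in the series, 6 belong to this comparison: 3 from Fes-/- mice and 3 from Fes+/+ mice, all labelled as PBS with a time of 4 hours. The cells were primary macrophages grown from mouse bone marrow in 20 ng/mL macrophage colony-stimulating factor, and polyadenylated RNA was sequenced. The other 6 libraries, from both genotypes after 1 µg/mL lipopolysaccharide (LPS) for 4 hours, entered the same statistical model to estimate the spread between libraries. All 12 libraries carry the same batch date in the labels. The strain background, age and sex of the mice and the structure of the Fes allele were not given in the sources used here. Of 55487 genes in the count table, 15801 had enough counts to be tested.

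FES and its relative FER form a small family of cytoplasmic tyrosine kinases with an F-BAR domain, which binds curved membranes, an SH2 domain, which binds phosphotyrosine, and a kinase domain. FES is expressed strongly in myeloid cells, where it acts downstream of cytokine and growth factor receptors and has been linked to adhesion and to restraint of inflammatory signalling. Resting macrophages kept in macrophage colony-stimulating factor depend on the receptor CSF1R, carry a large lysosome compartment, and express the lysozyme, complement and Fc receptor genes typical of the lineage.

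The PBS libraries held between 61682213 and 76617456 counts, of which 1.55% to 2.35% were mitochondrial. On log2 CPM (counts scaled to library size with TMM factors), 2 libraries of the same genotype correlated at 0.991 to 0.993, and 2 libraries of different genotype at 0.987 to 0.993. The first principal component held 34.9% of the variance and did not separate the genotypes: wild type 2 lay at one end, Fes-/- 2 and Fes-/- 1 at the other, and Fes-/- 3 lay on the wild-type side. Xist was between 900.4 and 1395 CPM in the 6 libraries and the Y-linked genes Ddx3y, Eif2s3y, Kdm5d and Uty had 0 counts in each, so all 6 had the expression pattern of female cells. With 3 samples a genotype, p-values rest on the spread between these mice and on that of the LPS groups.

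The cells had the expression profile of macrophages in both genotypes. By TPM (a level corrected for transcript length, so that genes can be compared), lysozyme Lyz2 was the most abundant nuclear transcript, at a mean of 26104 in wild type and 23316 in Fes-/-. The complement subunit C1qb was at 5351 and 4942 TPM, the lysosomal glycoprotein Cd68 at 4949 and 4733 TPM, and the M-CSF receptor Csf1r at 1691 and 1575 TPM. All 30 macrophage identity genes were tested. Of the markers of other lineages, Cd3e, Cd8a and Trbc2 of T cells, Cr2 and Vpreb3 of B cells, and Hba-a1 of red cells had 0 counts in all 6 libraries, and Ly6g of neutrophils had 1 count in all. Other members of the same lists were detected. The B cell list held Ighm at 53.9 and 44.1 TPM and Cd79b at 22.9 and 20.7 TPM in wild type and Fes-/-. The neutrophil list held Csf3r at 60.7 and 47.6 TPM and S100a9 at 21.3 and 12.7 TPM, and the T and NK cell list held Cd4 at 4.74 and 2.32 TPM. Higher levels were seen in other lists. The erythroid and megakaryocyte list, which holds Hba-a1, also held Pf4 at 862 and 878 TPM. The dendritic cell list held Bst2 at 675 and 673 TPM, and the monocyte list held Ccr2 at 74.2 and 69.6 TPM.

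Few genes differed between the genotypes at rest. An adjusted p under 0.05 (edgeR quasi-likelihood test, Benjamini-Hochberg over all tested genes) was reached by 13 of 15801 genes, or 0.0823%, of which 8 (0.0506%) were higher and 5 (0.0316%) lower in Fes-/-. They comprise 9 protein-coding genes and 4 gene models. The genes that fell were Fes, Furin, Man2a2, Alg8 and Fsd2, and the named genes that rose were Hddc3, Fah, Dgat2 and Amd2, with the models Gm44751, Gm26862, Gm35082 and Gm44075. The 3 libraries of one genotype did not overlap the 3 of the other for any of the 13, against 1078 genes (6.82%) without overlap among all tested, 478 (3.03%) higher and 600 (3.8%) lower. Of the 13, 11 lie on chromosome 7, the chromosome of Fes. An unadjusted p under 0.05 was reached by 605 genes (3.83%), 297 of them (1.88%) higher and 308 (1.95%) lower in Fes-/-, and this count rested on single libraries. It was 266 without Fes-/- 2, 353 without wild type 2, 926 without wild type 3, 1303 without wild type 1 and 1426 without Fes-/- 3.

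**Figure D1:**
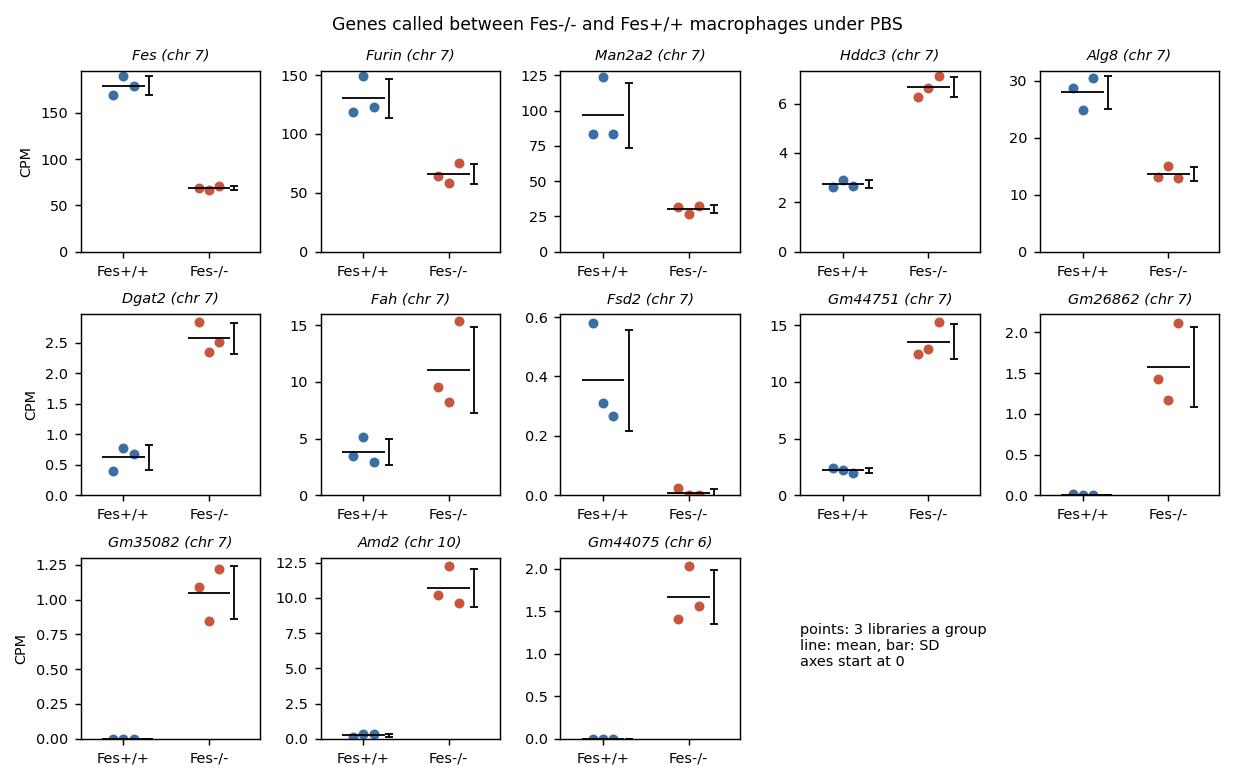
CPM of the 13 called genes in each PBS library, 1 panel a gene with its chromosome, for 3 Fes+/+ (blue) and 3 Fes-/- (red) libraries. Horizontal lines are means, bars are SD, and each axis starts at 0. No panel has overlapping groups, and Gm35082 and Gm44075 have no count in any wild-type library.

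Fes itself was read first, as a check of the labels. It was at 169, 189 and 179 CPM in the wild-type libraries and at 68.9, 66.4 and 70.5 CPM in the Fes-/- libraries. Every library labelled Fes-/- was below every wild-type library, and transcript counted to Fes was still present in all of them. The log2 difference was -1.38 ± 0.07 (SE, adjusted p = 6.16e-08), which left 38.3% of the wild-type level. Per length, Fes was at 164 TPM in wild type and 64.9 TPM in Fes-/-. The counts are summed over the gene, so they do not show which exons were covered. Among the LPS libraries, the genotype difference of Fes (Fes-/- minus wild type) was -2.26 on the log2 scale. The test of how it differs from that under PBS is given in the closing section.

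The Fes gene lies between its neighbours Man2a2 and Furin on the minus strand, with Hddc3 just beyond Man2a2 on the plus strand (GRCm38, Fes at chr7:80377756-80387946). Fes and these 3 neighbours all passed the test. The 250 bases before the RefSeq start of 5 called chromosome 7 genes are shown (GRCm38.p6, each on the strand of its gene), because these genes lie in one stretch of chromosome and moved in both directions. RefSeq promoters matched 8 of the 13 called genes. Man2a2, Dgat2, Gm44751, Gm44075 and Gm26862 were not matched. Capitals mark the GC box GGGCGG, which binds SP-family factors, on either strand.
Fes, chr7:80387947-80388196 (-): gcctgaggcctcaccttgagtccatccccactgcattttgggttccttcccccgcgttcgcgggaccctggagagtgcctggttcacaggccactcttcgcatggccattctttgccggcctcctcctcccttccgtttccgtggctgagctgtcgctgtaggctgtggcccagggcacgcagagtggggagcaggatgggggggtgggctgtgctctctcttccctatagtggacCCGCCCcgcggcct
Furin, chr7:80405437-80405686 (-): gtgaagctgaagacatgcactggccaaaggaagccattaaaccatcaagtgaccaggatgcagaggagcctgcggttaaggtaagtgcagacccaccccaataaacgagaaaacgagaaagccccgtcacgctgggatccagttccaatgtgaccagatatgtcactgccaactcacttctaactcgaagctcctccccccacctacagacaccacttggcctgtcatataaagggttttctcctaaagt
Hddc3, chr7:80342887-80343136 (+): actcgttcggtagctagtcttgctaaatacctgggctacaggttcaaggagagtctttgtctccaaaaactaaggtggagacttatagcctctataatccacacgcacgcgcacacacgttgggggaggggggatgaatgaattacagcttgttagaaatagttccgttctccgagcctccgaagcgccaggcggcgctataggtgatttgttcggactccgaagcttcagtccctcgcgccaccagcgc
Alg8, chr7:97371367-97371616 (+): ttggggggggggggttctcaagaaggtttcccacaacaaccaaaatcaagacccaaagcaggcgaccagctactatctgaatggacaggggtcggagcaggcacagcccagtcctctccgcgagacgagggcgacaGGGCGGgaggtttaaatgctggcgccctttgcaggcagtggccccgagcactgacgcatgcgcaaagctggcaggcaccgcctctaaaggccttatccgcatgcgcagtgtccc
Fah, chr7:84605943-84606192 (-): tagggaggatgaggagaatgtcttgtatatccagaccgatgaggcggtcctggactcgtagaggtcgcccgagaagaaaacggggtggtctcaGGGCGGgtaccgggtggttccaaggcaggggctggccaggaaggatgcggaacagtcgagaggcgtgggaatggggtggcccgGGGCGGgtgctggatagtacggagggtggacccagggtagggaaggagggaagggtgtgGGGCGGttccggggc
The Fes and Alg8 windows each held 1 GC box, the Fah window held 3, and those of Furin and Hddc3 held 0. Windows of the other matched genes, Fsd2, Gm35082 and Amd2 (not shown), also held 0. RefSeq lists a second start for Furin, and the window before it (chr7:80402813-80403062, not shown) held 2. Of 32851 RefSeq promoter windows, 32.7% held the motif. The PU.1 core GAGGAA, searched on both strands in the same windows, was in none of those of the matched called genes and in 23.3% of all. These are matches of letters only.

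Furin encodes the proprotein convertase that cleaves many secreted and membrane precursors in the Golgi (chr7:80388585-80405436). It was at 118, 149 and 123 CPM in wild type and at 64.2, 58.6 and 75.6 CPM in Fes-/-. The lowest wild-type library was above the highest Fes-/- library. The log2 difference was -0.98 ± 0.11 (adjusted p = 0.000623), 50.9% of the wild-type level. The only other convertase genes with enough counts were Pcsk4, Pcsk1, Mbtps1 and Pcsk7, and none of these was called. Pcsk7, the most abundant of them, was at 34.4 TPM in wild type and 36.6 TPM in Fes-/-.

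Man2a2 encodes alpha-mannosidase IIx, which trims N-glycans in the Golgi (chr7:80349097-80371375). Its CPM were 83.3, 124 and 83.5 in wild type and 31.7, 27.0 and 32.0 in Fes-/-. Wild type 2 was the highest, and the Fes-/- libraries lay close together. The log2 difference was -1.68 ± 0.17 (adjusted p = 0.000517), which left 31.3% of the wild-type level. Of the 24 tested genes of Golgi and ER N-glycan trimming it was the only one called, and the list's median was 0.00.

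Hddc3 encodes a phosphohydrolase of the HD domain family (chr7:80343104-80350547), and it was higher in Fes-/-. It was at 2.62, 2.91 and 2.67 CPM in wild type and 6.27, 6.64 and 7.11 CPM in Fes-/-. The groups were far apart relative to their spread, with a log2 difference of 1.29 ± 0.18 (adjusted p = 0.00569). The end of Hddc3 overlaps Man2a2 on the opposite strand. Whether counting used strand was not given in the sources used here, so reads in the overlap cannot be told apart. Without wild type 1 or wild type 3 the adjusted p of Hddc3 was 0.0508 or 0.0613, over the threshold.

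Further along the chromosome, Fsd2 fell to the edge of detection. This gene of an FN3 and SPRY domain protein (chr7:81533308-81566944) had 60, 27 and 24 counts in wild type and 2, 0 and 0 in Fes-/-. Per count, corrected for library size, wild type was 53.5 times as high, with a counting interval of 14.5 to 447 that covers counting error only. The adjusted p was 0.00368, and the level was low even in wild type, at 0.450 TPM.

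Fah encodes fumarylacetoacetase, the last enzyme of tyrosine breakdown (chr7:84585159-84606722). Its CPM were 3.47, 5.14 and 2.94 in wild type and 9.51, 8.25 and 15.3 in Fes-/-. Fes-/- 3 stood above the other two, and no library of one genotype reached the other. The log2 difference was 1.52 ± 0.24 (adjusted p = 0.0308). It was the least stable call: adjusted p was 0.535 in a fit of the 6 PBS libraries alone and 0.122 with the replicate number as a block. It passed in 5 of 12 fits that each left out 1 library, and not without wild type 1 (adjusted p = 0.173), wild type 3 (0.155), Fes-/- 1 (0.0625) or any of 4 LPS libraries. None of the other 5 tested genes of the pathway was called.

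Alg8 encodes a glucosyltransferase that adds glucose to the lipid-linked oligosaccharide used for N-glycosylation (chr7:97371606-97392185). It was at 28.7, 24.8 and 30.4 CPM in wild type and at 13.03, 15.1 and 12.9 CPM in Fes-/-. All Fes-/- libraries lay well below the wild-type libraries, with a log2 difference of -1.03 ± 0.11 (adjusted p = 4.00e-04). The level left was 49.0% of wild type. Of 32 tested genes of dolichol-linked oligosaccharide assembly and oligosaccharyltransferase, Alg8 alone was called, the median was 0.00, and 31 had a 95% interval of the difference within 1.5-fold. Among the latter, the transferase subunits Ddost and Rpn2 were at 396 and 295 TPM in wild type and at 417 and 312 TPM in Fes-/-.

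Dgat2 encodes 1 of the enzymes that add the last acyl chain to triglycerides (chr7:99153658-99182719). It was at 0.397, 0.783 and 0.680 CPM in wild type and at 2.85, 2.35 and 2.52 CPM in Fes-/-. The genotypes did not overlap, and the log2 difference was 2.06 ± 0.23 (adjusted p = 0.000476). The level reached, 4.02 TPM, was low beside other lipid genes, such as lipoprotein lipase Lpl at 723 TPM in wild type and 823 TPM in Fes-/-. Of 23 tested triglyceride and lipid droplet genes only Dgat2 was called, and the median was 0.00.

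The other called members on chromosome 7 are gene models without a named product. Gm44751, a lincRNA 7.93 Mb from Fes, was at 2.36, 2.27 and 1.97 CPM in wild type and 12.5, 12.9 and 15.3 CPM in Fes-/- (log2 difference 2.62 ± 0.12, adjusted p = 3.26e-08). Gm26862 had 1, 0 and 0 counts in wild type and 123, 115 and 181 in Fes-/-, a ratio of 434 with a counting interval of 77.6 to 17201 (adjusted p = 7.62e-06). Gm35082, a lincRNA 20.3 Mb from Fes, had 0 counts in each wild-type library and 94, 83 and 104 in Fes-/-. Gm26862 and Gm35082 were thus seen almost only in Fes-/- cells, while Gm44751 was detected in both genotypes. Against a floor of 3 counts over the wild-type group, Gm35082 was at least 97.1-fold higher (adjusted p = 0.000118). Gm26862 overlaps Fam181b on the same strand and Gm9934 on the other, so shared reads are uncertain.

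The share of genes that differed was counted along chromosome 7, because position was no part of the comparison. Within 5 Mb of Fes, 6 of 84 tested genes were called (7.14%). From 5 to 25 Mb away, 5 of 189 were called (2.65%), and beyond 25 Mb 0 of 949. On all other chromosomes 2 of 14579 were called (0.0137%). Counts at a looser limit, an unadjusted edgeR p under 0.05, had the same order near Fes: 21.4% within 5 Mb and 14.3% at 5 to 25 Mb, against 3.48% beyond 25 Mb, 3.61% on other chromosomes and 3.83% of all genes. The median absolute log2 difference was 0.14 within 5 Mb, 0.16 at 5 to 25 Mb, 0.10 beyond and 0.10 elsewhere. Both directions occurred: 2 of the 6 nearest calls were higher in Fes-/- and 4 lower, and of the 5 more distant 4 were higher and 1 lower. Of the 26 tested genes in the list of Fes locus neighbours, 22 were not called. Vps33b, of the vesicle tethering machinery, was at 14.0, 14.4 and 12.3 CPM in wild type and 14.5, 13.8 and 14.2 CPM in Fes-/- (log2 difference 0.06 ± 0.09, named after its values were seen).

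**Figure D2:**
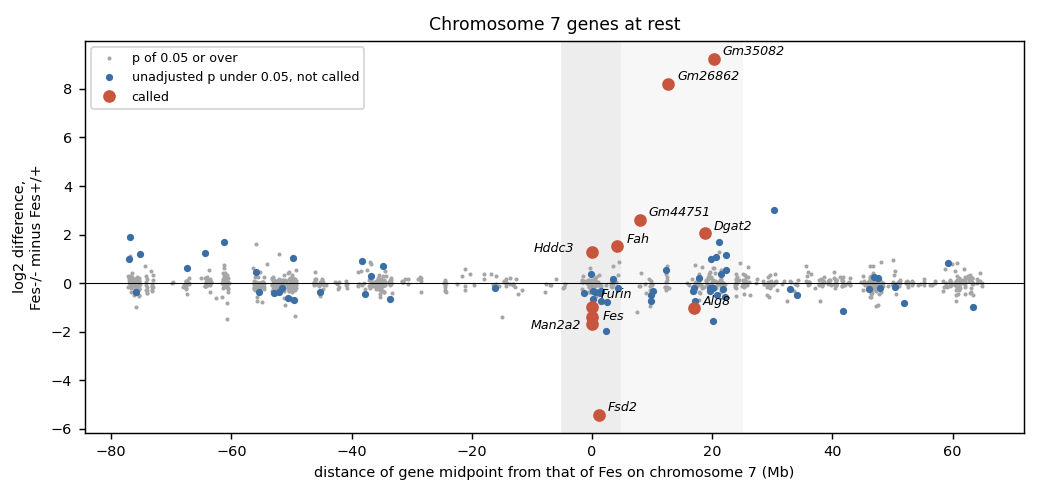
Log2 difference (Fes-/- minus Fes+/+) of the tested chromosome 7 genes against the distance of each gene's midpoint from that of Fes in Mb. Red points are called, blue points have an unadjusted p under 0.05, and shading marks 5 Mb and 25 Mb. All 11 called genes lie in the shaded stretch. The height of Gm35082, at 0 counts in wild type, depends on the fit's prior count.

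Several genes of this stretch were not called but had a small p. The purinergic receptor P2ry2 was at 3.85, 2.52 and 3.49 CPM in wild type and 6.79, 8.29 and 5.77 CPM in Fes-/- (log2 difference 1.08 ± 0.19, adjusted p = 0.0938). The RNA-binding protein gene Mex3b was at 13.9, 17.0 and 12.2 CPM against 8.44, 8.18 and 8.50 CPM (-0.78 ± 0.15, adjusted p = 0.1001). The DNA helicase gene Blm, next to Furin, was at 29.6, 24.5 and 26.1 CPM against 17.4, 17.0 and 17.4 CPM (-0.63 ± 0.13, adjusted p = 0.156). These 3 were named by a rule that required an unadjusted edgeR p under 0.01 and groups without overlap. Groups without overlap were found for 6.82% of all tested genes. All 3 passed DESeq2's Wald test, with adjusted p of 6.38e-05, 0.000167 and 0.00124. DESeq2 called 20 genes that edgeR did not, 11 on chromosome 7 and 9 elsewhere. Of the genes named below as uncalled, it called S100a9 (adjusted p = 0.00124), Cd5l (0.00174), Aamdc (0.00280), Trim21 (0.00778), Trim68 (0.00918), Dst (0.0107) and Ctsl (0.0441).

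Further genes of the same stretch, also uncalled, belong to the lists of signalling and trafficking genes. Inppl1, which encodes the lipid phosphatase SHIP2, was at 201, 190 and 183 CPM in wild type and 254, 247 and 237 CPM in Fes-/- (log2 difference 0.36 ± 0.09, adjusted p = 0.576). Fchsd2, an F-BAR protein gene like Fes, was at 44.2, 54.6 and 42.8 CPM against 32.2, 31.9 and 37.9 CPM (-0.47 ± 0.13, adjusted p = 0.859). The TRIM ubiquitin ligase gene Trim68 was at 8.57, 8.83 and 7.89 CPM against 11.9, 11.2 and 13.5 CPM (0.53 ± 0.13, adjusted p = 0.491). The groups of these genes did not overlap, as for 6.82% of all tested genes, with Inppl1 and Trim68 higher and Fchsd2 lower in Fes-/-. For Trim68 the rule for naming required this. Aamdc, close to Alg8, was at 4.48, 5.43 and 5.11 CPM against 2.99, 2.62 and 3.52 CPM (-0.72 ± 0.16, adjusted p = 0.260).

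Away from chromosome 7, only Amd2 and Gm44075 passed. Amd2 encodes a copy of S-adenosylmethionine decarboxylase, which supplies aminopropyl groups for polyamine synthesis (chr10:35708675-35711892). It was at 0.145, 0.323 and 0.312 CPM in wild type and at 10.2, 12.2 and 9.62 CPM in Fes-/-. The wild-type libraries were close to 0 and the log2 difference was 5.38 ± 0.26 (adjusted p = 3.43e-08). The Amd2 transcript is 99.6% identical to that of Amd1 over 3202 aligned bases, with 10 substitutions, 1 of them in the Amd1 coding part. That substitution, G1124C (Amd1 base first, position from 1 at the 5′ end of the Amd1 transcript, GENCODE M21), is in capitals in the windows shown, since it is a base by which coding reads of the copies can differ.
Amd1: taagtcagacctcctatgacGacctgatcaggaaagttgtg
Amd2: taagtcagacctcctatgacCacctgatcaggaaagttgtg
Amd1 was at 29.5, 17.5 and 24.9 CPM in wild type and 16.8, 18.1 and 13.8 CPM in Fes-/- (log2 difference -0.56 ± 0.21, adjusted p = 0.975). Summed, both copies were at 24.2 ± 5.95 CPM (SD, n = 3) in wild type and 26.9 ± 3.43 CPM in Fes-/-, and the libraries overlapped. How reads were split between such copies was not given in the sources used here, so each copy's value is uncertain. The other 20 tested polyamine genes held no call.

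Gm44075 is a processed pseudogene of 216 bases on chromosome 6. It had 0 counts in every wild-type library and 122, 199 and 133 in Fes-/-, at least 157-fold higher against a floor of 3 counts over the wild-type group (adjusted p = 2.99e-06). Its sequence matches Trim21 over 215 bases at 97.7% identity, with 5 substitutions, downstream of the Trim21 coding part. Trim21, an Fc-binding ubiquitin ligase gene on chromosome 7 at 22.2 Mb from Fes, was at 47.4, 39.4 and 47.2 CPM in wild type and 34.3, 30.7 and 25.7 CPM in Fes-/- (log2 difference -0.56 ± 0.11, adjusted p = 0.162). A window with the substitutions G2390A and G2413C (Trim21 base first, positions from 1 at the 5′ end of its transcript) is shown in capitals at these bases.
Trim21: ctGggtgctgtgctgggtctggtcaGtg
Gm44075: ctAggtgctgtgctgggtctggtcaCtg
As for Amd2, the division of reads between such similar sequences makes the value of each uncertain. The levels were less alike than those of the Amd copies. Mean CPM in wild type and Fes-/- was 0 and 1.67 for Gm44075 and 44.7 and 30.2 for Trim21. What part of the Trim21 difference lay in the shared stretch was not tested.

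Genes of the pathways around FES at the level of message mostly lay near 0 difference. Of 25 tested genes for FES, FER and reported partners, Fes was the only call and the median was -0.01. The relative Fer was at 20.9, 17.9 and 15.8 CPM in wild type and 16.6, 16.3 and 18.2 CPM in Fes-/-, with overlapping groups. The adaptor gene Gab2, which couples cytokine receptors to PI3 kinase, was at 68.5, 80.5 and 64.1 CPM against 61.2, 53.0 and 54.9 CPM (log2 difference -0.33 ± 0.08, adjusted p = 0.576). It lies on chromosome 7, 16.8 Mb from Fes. In the 16 tested SRC, SYK and TEC family kinases the median was -0.05 and none was called, with Csk at 207 TPM in both genotypes.

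The innate sensing genes showed no call at rest. Over all tested genes 0.0823% were called, so lists of this size would seldom hold a call. A 95% interval within 2-fold was found for 77.4% of all tested genes, and for 97.9% of those between 10 and 100 TPM. Of 21 genes of the LPS receptor TLR4 and its adaptors, all had a 95% interval within 2-fold and the median was -0.03. The LPS co-receptor Cd14 was at 576 and 646 TPM. Among 18 inflammatory cytokines the median was -0.03, with 9 above and 9 below 0 and 10 of 18 had an interval within 2-fold. The 47 tested interferon-stimulated genes had a median of 0.03, and 1 library set its sign: it was 0.29 without Fes-/- 3 and -0.16 without Fes-/- 1. For MHC class I presentation 23 of 23 intervals lay within 2-fold, and B2m was at 11626 and 10557 TPM. Among actin and podosome genes 33 of 34 lay within 2-fold, and Actb was at 7163 and 8445 TPM.

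Several macrophage gene lists sat slightly below 0 as a group, with no member called by edgeR. Over all tested genes the median was 0.00 and 49.6% were above 0. In the lysosome list, 1 of 38 genes was above 0 and 37 below, the median was -0.12, and every interval lay within 2-fold. The list does not hold every lysosomal gene: Hgsnat is outside it and was higher in Fes-/- (log2 difference 0.44 ± 0.13, adjusted p = 0.969). Members of a list can move together in a library, so they are not replicates, and the lists were chosen with earlier results known. The cathepsin gene Ctsl was at 1145, 938 and 978 CPM in wild type and 803, 724 and 842 CPM in Fes-/- (log2 difference -0.37 ± 0.10, adjusted p = 0.674). Ctss, a cathepsin that processes the class II invariant chain and is not in the lysosome list, was at 2120, 2040 and 2001 CPM against 1720, 1348 and 1684 CPM (-0.37 ± 0.10, adjusted p = 0.859). The MHC class II list, which holds Ctss and Ctsl, had 11 of 13 genes below 0 and a median of -0.21. All 8 Fc receptor genes lay below 0, with a median of -0.23, and 27 of 30 macrophage identity genes did, with a median of -0.14. By per-library median, all 3 Fes-/- libraries lay below all 3 wild-type libraries for lysosome and Fc receptor genes, and the groups overlapped for macrophage identity and MHC class II. Fes-/- 2 was the lowest of the 6 libraries for lysosome, macrophage identity and MHC class II, and Fes-/- 3 for the Fc receptors.

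Named members of these lists off chromosome 7 also had small differences with no call. Gpnmb, a glycoprotein of lysosome-rich macrophages, was at 3448, 3668 and 2854 CPM in wild type and 2287, 2135 and 2879 CPM in Fes-/- (log2 difference -0.45 ± 0.14, adjusted p = 0.975). Its groups overlapped, with Fes-/- 3 above wild type 3. The single-stranded RNA sensors Tlr8 and Tlr7 had log2 differences of -0.36 ± 0.13 and -0.28 ± 0.11 (adjusted p = 0.975 for both). Tlr7 was at 157, 211 and 171 CPM in wild type and 162, 135 and 148 CPM in Fes-/-, again with overlap. In the opposite direction the adhesion molecule gene Cadm1 was at 138, 142 and 132 CPM against 158, 168 and 165 CPM, without overlap (0.25 ± 0.07, adjusted p = 0.859). Among 31 ribosomal protein genes the median was -0.06, 28 lay below 0 and all intervals lay within 1.5-fold, among 29 glycolysis and pentose phosphate genes the median was 0.03, and among 26 genes of the TCA cycle and itaconate it was 0.00.

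Among the LXR targets, libraries of the same genotype were spread widely. Apoe, the apolipoprotein, was at 1428, 1689 and 757 CPM in wild type and 479, 390 and 1359 CPM in Fes-/-. Fes-/- 3 was above wild type 3, and the log2 difference of -0.80 ± 0.64 (adjusted p = 0.975) was close to its own error. Pltp, the phospholipid transfer protein, was likewise spread within each genotype: it was at 479, 626 and 384 CPM in wild type and 270, 163 and 522 CPM in Fes-/-. The groups overlapped in both genes. Other lists leaned the other way. Of 36 cell cycle genes, 33 were above 0 with a median of 0.12, and of 24 cholesterol synthesis genes, 20 were above 0 with a median of 0.13. In neither list was a gene called. Wild type 2 had the lowest per-library median in both.

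**Figure D3:**
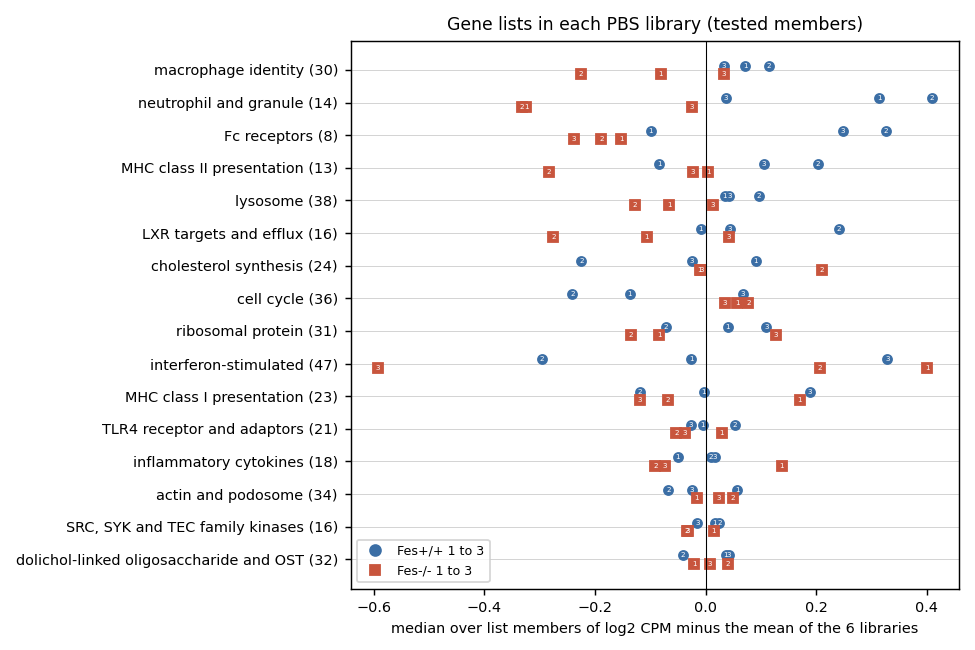
Median, over the tested members of 16 gene lists (number of members in brackets), of log2 CPM minus the gene's mean over the 6 PBS libraries. Circles are Fes+/+ and squares Fes-/-, numbered by replicate. Fes-/- 2 lies lowest in the macrophage identity, lysosome and LXR lists, and for interferon-stimulated genes Fes-/- 1 and Fes-/- 3 lie at opposite ends.

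**Figure D4:**
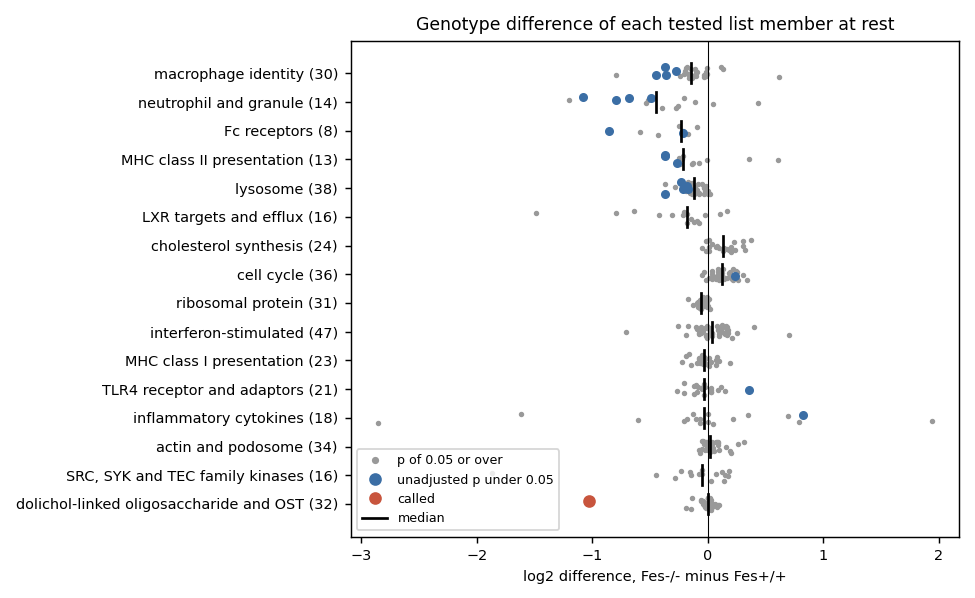
Log2 difference (Fes-/- minus Fes+/+) of each tested member of the same 16 lists, with the list median as a black bar. Blue points have an unadjusted p under 0.05 and the red point, Alg8, is called. Apart from Alg8 no member of these lists was called.

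Summed CPM over the members was lower in all 3 Fes-/- libraries than in all 3 wild-type libraries for 9 of 55 lists, and higher for 0. Among single tested genes, 600 (3.8%) were lower and 478 (3.03%) higher without overlap, which is another measure than a sum. The lists share members (1242 entries, 1133 different genes) and a sum follows its most abundant members, so the 9 are not separate observations. Of the 9 lists, 5 held a called gene, among them the lists with Fes, Furin or Man2a2. The other 4 were lysosome, MHC class II presentation, Toll-like receptors other than TLR4, and neutrophil and granule genes. Ctsl is in both the lysosome and the MHC class II lists, and Ctss and Ctsl made up 89.2% to 91.8% of the MHC class II sum in the 6 libraries. Without these cathepsins the sum over the other 11 class II genes overlapped, at 291, 350 and 311 CPM in wild type and 287, 251 and 304 CPM in Fes-/-. For lysosome genes the sums ran from 34479 to 36295 CPM in wild type and from 29474 to 33680 CPM in Fes-/-. For neutrophil and granule genes they ran from 65.4 to 89.7 CPM and from 47.8 to 62.6 CPM. In that list 12 of 14 tested members were below 0, the median was -0.45, and Ly6g, Retnlg and Stfa2l1 had 3 counts or fewer over all 6 libraries. S100a9 was at 2.64, 2.42 and 2.10 CPM in wild type and 1.31, 1.25 and 1.57 CPM in Fes-/- (log2 difference -0.79 ± 0.17, adjusted p = 0.218). In bulk RNA, fewer cells of a type and less RNA per cell cannot be told apart, and the part of these transcripts in the lists above was not tested.

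Outside chromosome 7, the uncalled genes with the largest differences among those without overlap included macrophage genes in both directions. Cd5l, which encodes a secreted macrophage scavenger protein, was at 81.0, 86.8 and 66.7 CPM in wild type and 39.3, 24.5 and 49.0 CPM in Fes-/- (log2 difference -1.06 ± 0.25, adjusted p = 0.576). The heparan sulfate-cleaving enzyme gene Hpse was at 80.1, 105 and 75.9 CPM against 58.5, 44.9 and 67.9 CPM (-0.61 ± 0.15, adjusted p = 0.576). The chemokine gene Ccl6 was at 148, 152 and 121 CPM against 93.6, 81.1 and 117 CPM (-0.53 ± 0.14, adjusted p = 0.671). In all 3 genes Fes-/- 2 was the lowest library. The C-type lectin gene Clec2d and the receptor gene Gpr155 had log2 differences of -0.50 ± 0.13 and -0.51 ± 0.16 (adjusted p = 0.576 and 0.975). On the other side, the cytoskeletal linker gene Dst was at 23.2, 22.3 and 19.5 CPM in wild type and 36.7, 34.6 and 27.1 CPM in Fes-/- (0.60 ± 0.12, adjusted p = 0.162). The lysosomal acetyltransferase gene Hgsnat was at 117, 129 and 145 CPM against 186, 193 and 149 CPM (0.44 ± 0.13, adjusted p = 0.969). The chemokine gene Ccl4 was at 4.34, 3.48 and 4.38 CPM against 6.10, 7.26 and 4.402 CPM (0.54 ± 0.16, adjusted p = 0.914). Of 45 uncalled genes that met the rule for such names, 14 were higher, 31 lower, and 18 on chromosome 7.

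The precision of the differences depended on level. Of the 15801 tested genes, 12228 (77.4%) had a 95% interval of the fold change within 2-fold, and 9695 (61.4%) within 1.5-fold. Between 10 and 100 TPM, 97.9% of 6908 genes lay within 2-fold, and below 1 TPM 20.8% of 2991 did. The median standard error was 0.10 on the log2 scale in the first class and 0.49 in the second. At or above 1 TPM, 64 of 12810 genes had an estimated difference over 2-fold.

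**Figure D5:**
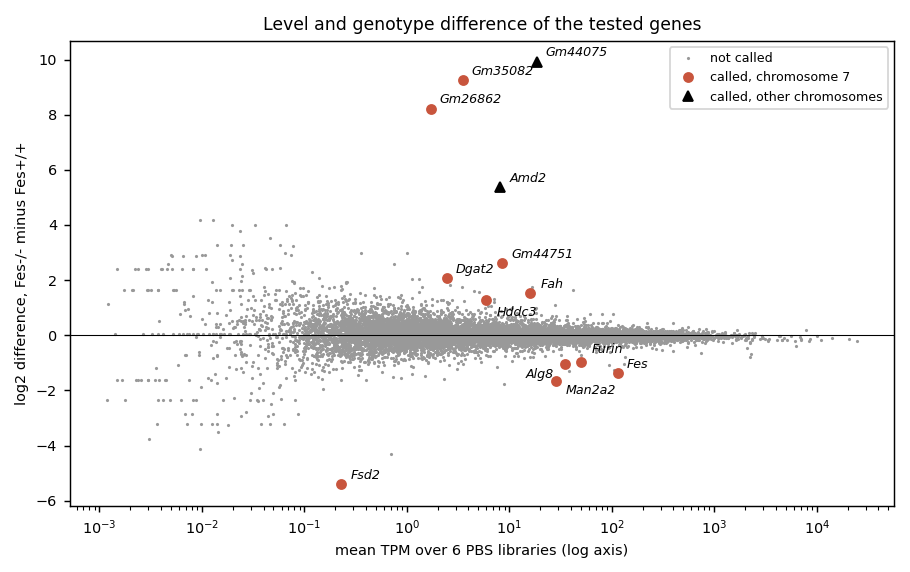
Log2 difference (Fes-/- minus Fes+/+) against the mean TPM over the 6 PBS libraries (log axis) for the tested genes. Called genes on chromosome 7 are red circles and those on other chromosomes black triangles. The spread narrows with level, and the heights of Gm44075 and Gm35082, at 0 counts in wild type, depend on the fit's prior count.

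The same genes were read under LPS, where the wild-type and Fes-/- groups are other libraries. These libraries entered the same fit. Deviations from the group mean correlated at 0.07 to 0.19 for same-numbered PBS and LPS libraries of a genotype. For different-numbered ones the correlation was -0.13 to 0.06. Whether same-numbered libraries came from the same mice was not tested, so this reading is no independent check. All 13 had a log2 difference of the same sign there, and 10 of 13 were called, against 17 genes called in all (0.108%). The exceptions were Fsd2, Dgat2 and Gm35082. Under LPS the mean of Furin was 752 CPM for wild type against 262 CPM for Fes-/-, a log2 difference of -1.52 ± 0.11 (adjusted p = 4.66e-06). Gm44751 was at 10.8 and 72.5 CPM there, so both genotypes were above their resting level. Of the 13, only Fes passed the test for a change of the genotype difference between PBS and LPS, in which 3 genes (0.0190%) were called in all. An unadjusted p under 0.05 in that test was reached by 5 of the 13, against 464 of 15801 tested genes. These 5 were Fes, Furin, Dgat2, Fsd2 and Hddc3. For Gm44075 and Gm35082, at 0 CPM in wild type under PBS and LPS, the SE was 8749 and 5703, so the test could not show a change.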

How the data were processed

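RNA from 12 macrophage libraries was sequenced, 3 for each genotype with PBS or LPS. The authors deposited raw counts per gene and TPM. The submitters' processing notes name DESeq2 1.34.0, R 4.1.12, STAR 2.7.8a and Picard 2.9.0, and the builds mm9 and GRCm38 without a role. Which program counted the reads was not given in the sources used here. The deposited TPM match GENCODE M21 exon lengths within 1% for 98.6% of 9487 well-counted genes, so coordinates are those of that annotation on GRCm38.

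From the deposited counts, edgeR 4.0.16 (R 4.3.3) kept 15801 genes with filterByExpr, used TMM factors and fitted 1 mean for each of 4 groups over 12 libraries (8 residual degrees of freedom, robust quasi-likelihood F test, two-sided). Genes with a Benjamini-Hochberg adjusted p under 0.05 were called. Intervals are 95%. CPM are counts over TMM-scaled library size, and errors of log2 differences are SE. TPM were used for levels between genes. Total counts of 61682213 to 76617456 a PBS library set the counting precision. Intervals of log2 and fold differences come from the fit's SE across libraries, and only count-ratio intervals and floors (3 counts) cover counting error alone. The test was tried on 1 set of simulated counts. It recovered 23 of 50 genes changed 1.41-fold and 48 of 50 changed 2-fold, and 13 of its 183 calls were false. The changed genes were drawn from those with a mean over 1 CPM, so genes at lower levels were not covered. With 183 calls, against 13 in the data, the adjusted threshold let through larger unadjusted p. Recovery in the data can therefore be lower. Those counts were drawn independently for each gene, so shifts that many genes of a library share were not part of the trial. Similar transcripts were aligned with BLAST 2.17.0.

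Alternatives were DESeq2 1.42.0, RLE factors, library totals, other filters, the PBS libraries alone, limma 3.58.1 on log2(TPM + 1) and log2(TPM + 0.1), the replicate number as a block, and each library left out. The named genes are all called genes, the 10 largest uncalled differences in each direction (unadjusted p under 0.01, at least 5 CPM in a group, no overlap, named genes), and in each list up to 2 members with the smallest p and 2 with the highest TPM, with the 15 most abundant named protein-coding genes and the marker lists. The members and the 55 lists (1009 tested genes) were chosen with earlier results of these data known. No set test was run.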

Additional observations from a re-analysis of the deposited data

Results flagged for a closer look

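The effect of the genotype on Fes itself differed between PBS and LPS. Under PBS the log2 difference was -1.38 ± 0.07, with means of 179 CPM (wild type) and 68.6 CPM (Fes-/-), and under LPS it was -2.26 ± 0.07, with means of 162 and 33.8 CPM. The difference of both effects, tested in the same edgeR fit, was -0.87 ± 0.10 on the log2 scale (adjusted p = 0.00556). All 3 Fes-/- libraries were below all 3 wild-type libraries in each condition. Groups of 3 are too small to look for single outlying samples.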

How the results depend on the processing

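Of the 13 calls at rest, 11 held in all 12 fits that left out 1 library, and 12 held both with the 6 PBS libraries alone and with the replicate block over 12 libraries, each time without Fah. Counts of genes called higher and lower were 8 and 5, and ran from 7 to 11 and from 5 to 6 when 1 library was left out. DESeq2 called 15 and 18, 33 in all, among them the 13. Without a filter on low counts 164 and 151 genes were called and 1534 had an unadjusted p under 0.05. That count, 605 in all tested genes, ran from 266 to 1426 with 1 library left out. The cause was not tested. The genes called for a change of the genotype difference between LPS and PBS numbered 3. They numbered 5 with DESeq2, 5 on log2(TPM + 0.1), 6 on log2(TPM + 1) and 90 without a filter.

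The replicate numbers did not pair the genotypes: deviations of same-numbered libraries correlated at 0.02, -0.16 and -0.14. Same-numbered PBS and LPS libraries correlated at 0.14, 0.17 and 0.14 in wild type and at 0.07, 0.09 and 0.19 in Fes-/-, so not every pair was over 0.1. Different-numbered ones ran from -0.10 to -0.04 in wild type and from -0.13 to 0.06 in Fes-/-. Deviations in a group sum to 0 for each gene, so these values are not independent of the same-numbered ones. In the test for a change of the genotype difference between LPS and PBS, 2 genes were called with the replicate block. With a replicate block within each genotype, chosen after seeing the data, 4 were called. Fes was called in both (adjusted p = 0.0277 and 0.00329). With the replicate block over 12 libraries 7 genes were higher and 5 lower. In the 6 PBS libraries alone with the replicate block, also chosen after seeing the data, 3 were higher, 1 lower and 259 had an unadjusted p under 0.05. Over the 79 named genes and 22 alternatives, 1654 of 1732 values kept direction and side of the threshold and 0 reversed. Only 13 of the 79 were called at rest, so most had no call to lose. In 20 values a called gene missed the threshold, and in 58 an uncalled gene passed it. Fes ran from -1.44 to -1.35 with 1 library left out. List medians moved by more than the spread between replicates in 67 of 1210 cases. Depth limits genes below 1 TPM, of which 20.8% had an interval within 2-fold.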
